A study of Mus musculus with 18 samples.

Results

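Expression of 10 genes of leukocyte adhesion was examined in mouse retinas after bright light with and without the galectin-3 inhibitor TD139. The genes were picked by symbol, 10 of the 23420 symbols counted, and encode 4 counter-receptors (Icam1, Vcam1, Icam2 and Alcam), 5 integrin subunits (Itgb2, Itgam, Itgal, Itgb1 and Itga4) and a selectin ligand (Selplg). All 10 passed the filter on low counts, which left 15196 genes. All mice were BALB/cJ animals of wild-type genotype, an albino strain, aged 8 to 10 weeks. The 3 naïve mice had neither light nor injections. The 3 vehicle-treated mice were exposed to white light of 15000 lux for 1 h, received DMSO into the abdominal cavity each day from the day before the light on, and gave their retinas 4 days after it. The 3 TD139-treated mice had the same light and schedule with 15 mg/kg TD139 in DMSO. Against naïve mice the light and the injections cannot be told apart, and both comparisons of the vehicle-treated mice rest on the same 3 animals.

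White blood cells leave the blood in steps. Selectins catch rolling cells through carbohydrates on proteins such as P-selectin glycoprotein ligand 1, activated integrins then hold them on immunoglobulin-type counter-receptors of the endothelium, and the cells pass between the endothelial junctions. Integrins are pairs of an alpha and a beta chain: the beta 2 chain with alpha L (LFA-1) or alpha M (Mac-1, complement receptor 3) binds intercellular adhesion molecules, and the beta 1 chain with alpha 4 (VLA-4) binds VCAM-1. The beta 2 integrins are carried by leukocytes, and in the retina the resident microglia carry Mac-1. Beta 1 is found on most cell types, and inflamed endothelium and glia can make ICAM-1 and VCAM-1.

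The promoters of Icam1 and Itgam are shown because both genes rose after light and fell with TD139, and because they stand for a counter-receptor and an integrin chain. The RefSeq table used here (GRCm38.p6) matched 5 of the 10 genes by symbol (Icam1, Itgam, Itgb1, Itga4 and Alcam), and the 250 bases before the start of the transcript are given here from 5′ to 3′ on the strand of the gene.
Icam1, chr9:21015690-21015939, plus strand: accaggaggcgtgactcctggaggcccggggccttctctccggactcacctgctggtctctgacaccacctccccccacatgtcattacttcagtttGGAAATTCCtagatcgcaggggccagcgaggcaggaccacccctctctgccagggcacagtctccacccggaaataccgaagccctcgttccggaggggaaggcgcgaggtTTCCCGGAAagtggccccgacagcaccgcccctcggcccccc
Itgam, chr7:128062390-128062639, plus strand: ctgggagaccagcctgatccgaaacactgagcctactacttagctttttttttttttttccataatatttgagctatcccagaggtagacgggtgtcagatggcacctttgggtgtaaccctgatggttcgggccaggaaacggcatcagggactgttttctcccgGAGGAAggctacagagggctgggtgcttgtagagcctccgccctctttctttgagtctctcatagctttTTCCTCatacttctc
In Icam1 the capitals mark GGAAATTCC, a variant of the binding motif of NF-kappaB, 153 bases before the start, and a match to TTCNNNGAA, the motif of STAT factors, 42 bases before it. The first was found in 0.286% and the second in 7.02% of 32851 promoters of the same length, on either strand, and the matches do not overlap. Both motifs were added to the search after the sequence of Icam1 had been read. The NF-kappaB consensus, held by 7.25% of the promoters, had no match in the 5 promoters. In Itgam the capitals mark GAGGAA, the core motif of PU.1, a factor of myeloid cells, on the plus strand 84 bases and on the minus strand 15 bases before the start. This motif was in 23.3% of promoters, among them also those of Itgb1 (9 bases before the start) and Alcam (19 bases). TGANTCA of AP-1 (6.75% of promoters) and the TATA box TATAAA (12.4%) had no match in the 5 windows. The matches are descriptions of the sequence, and binding was not measured.

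The mice had 26171887 to 30201517 reads on genes, and a read count of 3 stands for 0.101 to 0.119 CPM (reads on a gene relative to the library size of that mouse, which is its reads on all genes scaled by TMM normalization). The summed level of 6 rod genes, 38015 to 74707 CPM, marked the tissue as retina. In 2 features the TD139-treated mice stood apart. Their reads outside genes were 21.3 to 22.8% against 16.5 to 19.9% in the others, and the fold changes followed transcript length across 15079 genes, with a Spearman correlation of 0.49 against vehicle-treated and 0.59 against naïve mice, where vehicle-treated against naïve mice gave −0.11. Genes are not independent replicates, so no p-value is given. The part of the reads outside genes in the results was not tested. TD139-treated mouse 1 was the highest of its group for 8 of the 10 genes, all but Icam2 and Itgal.

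The counter-receptors Icam1 and Vcam1 rose in vehicle-treated mice and fell with TD139. Icam1 (ENSMUSG00000037405.8, chromosome 9 from 21015985 to 21028817, plus strand, GRCm38) encodes the ligand of LFA-1 and Mac-1. It was at 1.04, 0.452 and 0.440 CPM in naïve mice 1 to 3, at 5.47, 5.60 and 11.6 CPM in vehicle-treated mice and at 2.19, 0.452 and 0.158 CPM in TD139-treated mice. Each vehicle-treated mouse was above all other mice, whereas TD139-treated mice spanned the naïve range. Vehicle-treated mouse 3 had 344 reads on the gene and TD139-treated mouse 3 only 4. The log2 fold change was 3.55 (SE 0.81, adjusted p = 0.0351) for vehicle against naïve and −3.01 (SE 0.78, adjusted p = 0.0191) for TD139 against vehicle, from edgeR's quasi-likelihood test with Benjamini-Hochberg adjustment over all tested genes, as for all adjusted p-values here. In fold terms the level was 11.7-fold higher with light and vehicle, and 8.05-fold lower with TD139 than with vehicle. Without TD139-treated mouse 1, the highest of its group, the fall was larger, at a log2 fold change of −4.59 (adjusted p = 0.000684). The call was lost without vehicle-treated mouse 3 (−2.56, adjusted p = 0.0614) and without TD139-treated mouse 2 (−2.68, adjusted p = 0.0880).

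Vcam1 (ENSMUSG00000027962.14, chromosome 3 from 116109949 to 116129688, minus strand) encodes the ligand of VLA-4. Naïve mice had 8.14, 9.46 and 8.10 CPM, vehicle-treated mice 33.1, 27.8 and 37.3 CPM, and TD139-treated mice 15.2, 6.57 and 8.22 CPM. All vehicle-treated mice were above all mice of the other groups, and TD139-treated mouse 1 lay above the naïve range while mouse 2 lay below it. The log2 fold changes were 1.93 (SE 0.27, adjusted p = 0.0127) for vehicle against naïve and −1.71 (SE 0.27, adjusted p = 0.00567) for TD139 against vehicle, or 3.82-fold higher and 3.27-fold lower. Against vehicle the gene was called with each of the 9 mice left out and in all 11 other alternatives, with values from −2.15 to −1.48.

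Icam2 and Alcam did not pass the test in these comparisons. Icam2 (ENSMUSG00000001029.15, chromosome 11 from 106377656 to 106388075, minus strand) encodes a ligand of LFA-1 that resting endothelium carries. Its levels were 1.08, 1.09 and 0.440 CPM in naïve, 1.18, 0.987 and 1.24 CPM in vehicle-treated and 0.667, 0.835 and 1.07 CPM in TD139-treated mice, from 12 to 37 reads. The groups overlapped, and the log2 fold changes were 0.39 (SE 0.39, adjusted p = 0.551) and −0.41 (SE 0.39, adjusted p = 0.436). The first value was −0.094 in sequencing run 1 alone and 1.15 in run 2 alone, neither called. With errors this wide, the missing calls do not show that the groups were alike. Alcam (ENSMUSG00000022636.13, chromosome 16 from 52248996 to 52454074, minus strand) encodes CD166, which binds CD6 on lymphocytes and itself. It was at 18.4, 20.01 and 15.5 CPM in naïve, 24.1, 22.2 and 19.5 CPM in vehicle-treated and 24.6, 22.4 and 21.4 CPM in TD139-treated mice. The 2 light-exposed groups overlapped, and the differences were 0.29 (SE 0.13, adjusted p = 0.192) and 0.06 (SE 0.13, adjusted p = 0.766) on the log2 scale.

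**Figure D1:**
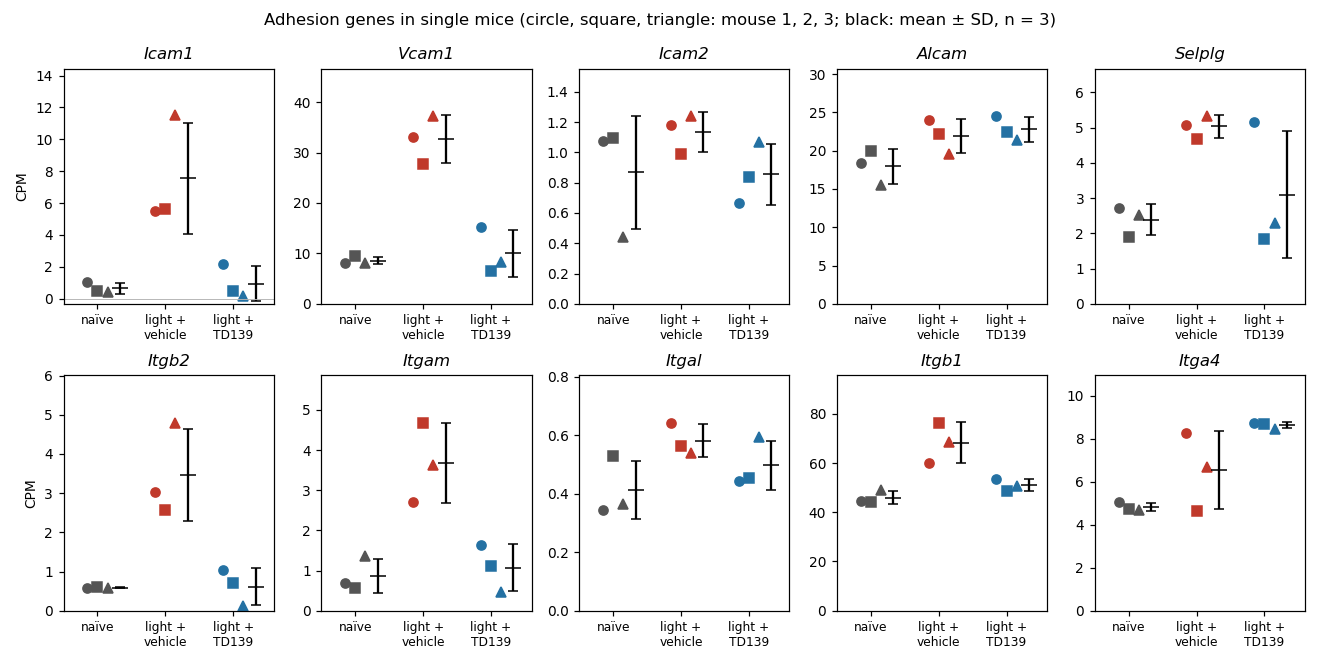
Levels of the 10 adhesion genes in CPM (vertical axis, starting at 0 except for Icam1, where the lower error bar of the TD139 group reaches below 0) in naïve, light + vehicle and light + TD139 mice, with circle, square and triangle for mouse 1, 2 and 3 and black bars for mean ± SD (n = 3). For Icam1, Vcam1, Itgb2, Itgam and Itgb1 all vehicle-treated mice lie above all others, while for Itga4 the TD139-treated mice are highest, from 8.45 to 8.75 CPM.

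Of the beta 2 integrin genes, Itgb2 and Itgam rose after light and vehicle and fell with TD139, whereas Itgal passed neither test. Itgb2 (ENSMUSG00000000290.13, chromosome 10 from 77530252 to 77565708, plus strand) encodes CD18, the beta chain that LFA-1 and Mac-1 share. Naïve mice had 0.576, 0.603 and 0.586 CPM, vehicle-treated mice 3.04, 2.57 and 4.80 CPM, and TD139-treated mice 1.04, 0.696 and 0.119 CPM. The vehicle-treated mice were all above the rest, and TD139-treated mouse 3, with 3 reads, was the lowest of all 9. The log2 fold change was 2.55 (SE 0.53, adjusted p = 0.0247) for vehicle against naïve and −2.48 (SE 0.53, adjusted p = 0.00830) for TD139 against vehicle, or 5.87-fold higher and 5.56-fold lower. The first value differed between the sequencing runs, at 1.98 in run 1 alone and 3.42 in run 2 alone, both called. The fall with TD139 was called in all 9 fits without a mouse, at −3.06 to −2.0.

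Itgam (ENSMUSG00000030786.18, chromosome 7 from 128062640 to 128118491, plus strand) encodes CD11b, the alpha chain of Mac-1 and a common marker of microglia and myeloid cells. It was at 0.691, 0.565 and 1.36 CPM in naïve, 2.72, 4.69 and 3.63 CPM in vehicle-treated and 1.63, 1.11 and 0.474 CPM in TD139-treated mice. Vehicle-treated mice did not overlap with either group, and the other groups overlapped with each other. The log2 fold changes were 2.07 (SE 0.46, adjusted p = 0.0269) and −1.77 (SE 0.45, adjusted p = 0.0147), or 4.20-fold higher and 3.41-fold lower. The fall was not called without TD139-treated mouse 2 (−1.80, adjusted p = 0.0606) or mouse 3 (−1.42, adjusted p = 0.0556). Itgal (ENSMUSG00000030830.18, chromosome 7 from 127296260 to 127335138, plus strand) encodes CD11a, the alpha chain of LFA-1. Its levels of 0.346, 0.527 and 0.366 CPM in naïve, 0.643, 0.564 and 0.537 CPM in vehicle-treated and 0.445, 0.452 and 0.593 CPM in TD139-treated mice come from 9 to 18 reads a mouse. The vehicle-treated mice were just above the naïve mice and overlapped with the TD139-treated mice. The log2 fold changes of 0.49 (SE 0.39, adjusted p = 0.438) and −0.23 (SE 0.38, adjusted p = 0.662) did not pass the test, which does not show that the groups were alike.

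Itgb1 (ENSMUSG00000025809.15, chromosome 8 from 128685654 to 128733200, plus strand), which encodes the widely shared beta 1 chain, changed in the same directions by much less. Naïve mice had 44.7, 44.3 and 49.0 CPM, vehicle-treated mice 59.9, 76.5 and 68.4 CPM, and TD139-treated mice 53.4, 48.5 and 50.8 CPM. Again all vehicle-treated mice were above the others. The log2 fold change was 0.57 (SE 0.11, adjusted p = 0.0192) against naïve, 1.49-fold higher, and −0.42 (SE 0.11, adjusted p = 0.0137) with TD139, 1.34-fold lower. The fall was not called without TD139-treated mouse 2 (adjusted p = 0.0608) or mouse 3 (adjusted p = 0.0526).

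Its partner Itga4 (ENSMUSG00000027009.18, chromosome 2 from 79255426 to 79333123, plus strand), the alpha 4 chain of VLA-4, had another order of groups. It was at 5.03, 4.75 and 4.69 CPM in naïve mice, 8.26, 4.65 and 6.68 CPM in vehicle-treated mice and 8.75, 8.66 and 8.45 CPM in TD139-treated mice. The vehicle-treated mice were spread widely and overlapped with the naïve mice, and the TD139-treated mice were above all others. The differences of 0.44 (SE 0.21, adjusted p = 0.195) for vehicle against naïve and 0.40 (SE 0.20, adjusted p = 0.145) for TD139 against vehicle did not pass the test, and TD139 against naïve did, at 0.84 (SE 0.21, adjusted p = 0.0466). This call held in 3 of the 9 fits without a mouse, with values from 0.82 to 0.88 and adjusted p-values from 0.0423 to 0.163. Its longest transcript has 9767 bases, the longest among these genes. With an offset in each mouse for length and GC content of the transcripts, the value against naïve was 0.25 (adjusted p = 0.629) and that against vehicle −0.28 (adjusted p = 0.374).

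Selplg (ENSMUSG00000048163.13, chromosome 5 from 113818536 to 113832644, minus strand) encodes P-selectin glycoprotein ligand 1, the tether by which leukocytes roll. Naïve mice had 2.73, 1.88 and 2.53 CPM, vehicle-treated mice 5.08, 4.69 and 5.34 CPM, and TD139-treated mice 5.15, 1.84 and 2.29 CPM. Naïve and vehicle-treated mice did not overlap, and TD139-treated mouse 1 lay within the vehicle range while the other two were close to naïve mice. The log2 fold change of 1.08 (SE 0.35, adjusted p = 0.0773) for vehicle against naïve missed the threshold, and DESeq2 (adjusted p = 0.0291), limma voom with sample weights (adjusted p = 0.00284) and edgeR with only the groups compared (adjusted p = 0.0214) called it. Against vehicle, TD139 gave −0.70 (SE 0.34, adjusted p = 0.131), which only limma voom called among the 11 alternatives (−1.07, adjusted p = 0.00527). Without TD139-treated mouse 1 it was −1.29 (adjusted p = 0.00448), and the difference of vehicle from naïve was then called as well (adjusted p = 0.0132).

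**Figure D2:**
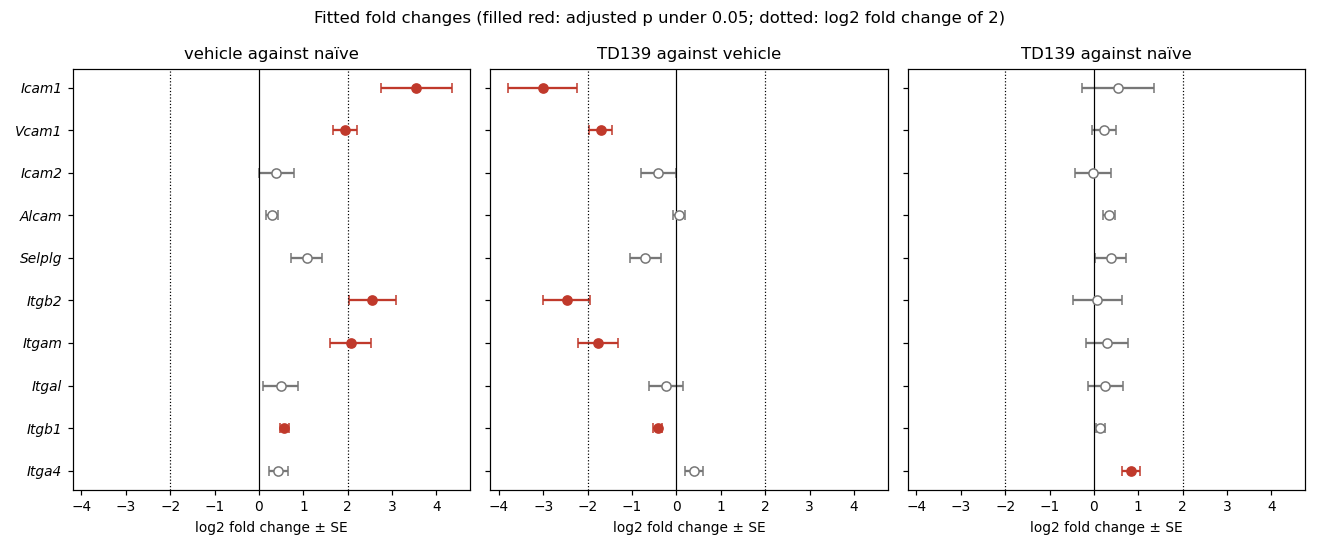
Log2 fold changes (horizontal axis, point and bar for estimate ± SE from the fit over 3 mice a group) of the 10 genes in the 3 comparisons, filled red where the adjusted p-value is under 0.05, with dotted lines at −2 and 2. The same 5 genes are filled to the right in vehicle against naïve and to the left in TD139 against vehicle, and Itga4 is the only one filled in TD139 against naïve.

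For vehicle against naïve, 5 of the 10 genes were higher, where 4.91% of all tested genes were, and 0 were lower, where 2.89% of all genes were. All 10 estimates were above 0, 6 with an unadjusted p under 0.05 (27.6% of all genes), and their median log2 fold change was 0.83 against −0.00 for all genes. For 7 of them every mouse with vehicle exceeded each of the 3 naïve mice, a pattern seen in 16.6% of genes. Past the fold change used by the study (log2 of at least 2) and called, 3 genes remained, Icam1, Itgb2 and Itgam, against 1.24% of all genes.

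With TD139, 5 of the 10 genes were lower than with vehicle, against a background of 16.2%, and 0 were higher, against 17.2%. Calls in either direction were thus more frequent among all genes here than for vehicle against naïve. The median of the genes was −0.56, that of all genes −0.02, and 8 of the estimates were below 0. All 3 TD139-treated mice were below all 3 vehicle-treated mice for 5 genes, and this held for 25.4% of all genes. With the offset for length and GC content the 5 genes were called as well, and 20.3% of all genes were then called in either direction. Icam1 and Itgb2 passed the study's fold change in this direction, 2 genes, against 1.53% of all genes. The vehicle-treated mice enter both comparisons, which are therefore not independent.

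Between TD139-treated and naïve mice, 1 gene was higher (Itga4), against 2.72% of all genes, and 0 were lower, against 2.38%. The log2 differences of the genes that rose with light and vehicle were 0.54 (SE 0.82) for Icam1, 0.22 (SE 0.27) for Vcam1, 0.08 (SE 0.56) for Itgb2, 0.30 (SE 0.47) for Itgam and 0.15 (SE 0.11) for Itgb1, with adjusted p-values of 0.701, 0.610, 0.942, 0.708 and 0.384. With errors this wide for Icam1, Itgb2 and Itgam, these p-values do not show that the groups were alike. Alcam, at 0.34 (SE 0.14, adjusted p = 0.121), had all TD139-treated mice above all naïve mice. The share of all genes with this pattern was not counted here. With the offset for length and GC content the difference of Alcam was −0.0046.

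Levels can be set beside each other between genes per kilobase of the longest transcript. In naïve mice the order of mean CPM per kilobase was Itgb1 (12.1), Alcam (2.97), Vcam1 (2.10), Selplg (1.03), Icam2 (0.678), Itga4 (0.494), Icam1 (0.254), Itgb2 (0.198), Itgam (0.186) and Itgal (0.0791). Neighbours whose mice overlapped, and whose order is therefore open, were Selplg with Icam2, Icam2 with Itga4, Icam1 with Itgb2, and Itgb2 with Itgam. In vehicle-treated mice Vcam1 (8.01 ± 1.16, SD, n = 3) stood second after Itgb1 (17.9 ± 2.17) and above Alcam (3.63 ± 0.378), with no overlap between these neighbours, and Icam1 (2.98 ± 1.37) came next and overlapped with Alcam and Selplg. In TD139-treated mice Alcam (3.78 ± 0.270) was again second and overlapped with Vcam1 (2.45 ± 1.12). Itgal had the lowest mean in each group and overlapped with Itgb2 in TD139-treated mice.

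The beta 2 integrin genes, of which Itgb2 and Itgam passed the test and Itgal did not, were set beside markers of microglia. In bulk RNA fewer cells of a type and less RNA per cell cannot be told apart. The naïve mice had 43.0 to 51.0 CPM on 9 microglia markers together, those with vehicle 126 to 155 CPM and those with TD139 35.6 to 82.0 CPM. Of these markers, 6 rose with light and vehicle (4.91% of all genes) and 6 fell with TD139 (16.2%). Without TD139-treated mouse 1 these were 7 and 6, beside 7.56% and 19% of all genes. The summed level of Itgam, Itgal and Itgb2 was 1.61 to 2.31, 6.40 to 8.97 and 1.19 to 3.11 CPM in the same order. As a share of the marker sum, the integrin genes were 3.16, 3.81 and 5.37% in naïve, 4.63, 6.19 and 5.77% in vehicle-treated and 3.80, 5.14 and 3.33% in TD139-treated mice. The groups overlapped in all comparisons. The mean share was 4.11 ± 1.13% (SD, n = 3), 5.53 ± 0.81% and 4.09 ± 0.94%, and an exact two-sided permutation test gave p = 0.2 for vehicle against naïve, 0.2 for TD139 against vehicle and 1 for TD139 against naïve, where 0.1 is the smallest p that 3 against 3 mice allow. Beyond this share, the part of microglia in the integrin values was not tested.

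**Figure D3:**
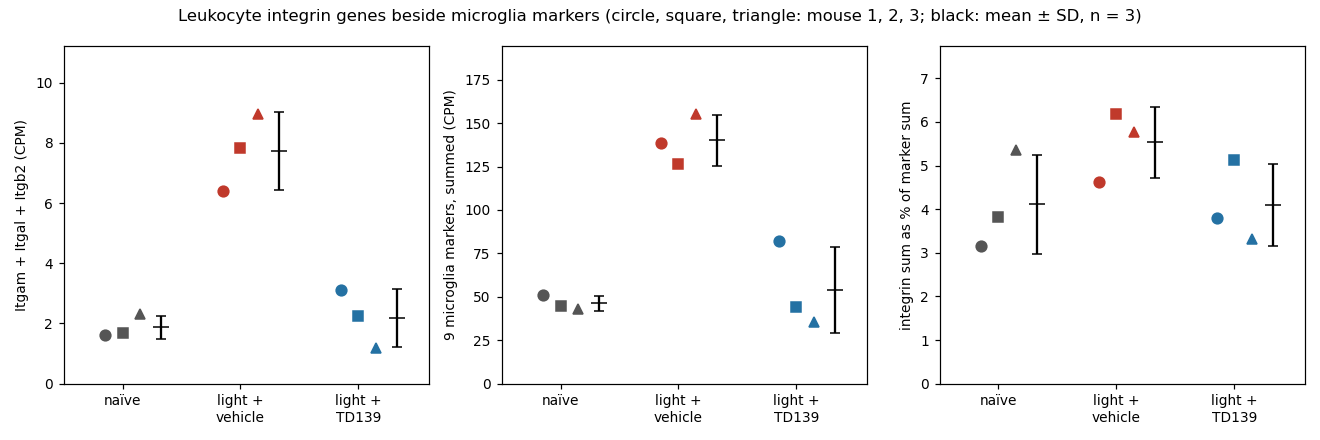
Left, summed CPM of Itgam, Itgal and Itgb2. Middle, summed CPM of 9 microglia markers. Right, the first as a percentage of the second, in single mice (circle, square, triangle) with mean ± SD (n = 3) in black. Both sums are highest in the vehicle-treated mice, at 6.40 to 8.97 and 126 to 155 CPM, while the percentages of the 3 groups overlap.

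Markers of other cells that could carry these genes were summed in the same way. Their calls with all mice stand beside 4.91% of all genes higher and 2.89% lower for vehicle against naïve, and 17.2% and 16.2% for TD139 against vehicle. With the offset for length and GC content these shares were 7.24% and 6.34%, and 9.49% and 10.8%. Without TD139-treated mouse 1 they were 7.56% and 5.28%, and 19.4% and 19%. Endothelial markers (8 genes) summed to 103 to 117 CPM in naïve mice, 130 to 151 CPM with vehicle and 107 to 134 CPM with TD139, with 0 called for vehicle against naïve and 2 lower with TD139 (0 with the offset for length and GC content). Of the monocyte list only 2 of 8 genes were tested, and its sum was 2.20 to 3.96, 4.97 to 20.1 and 1.03 to 2.26 CPM, of which S100a4 reached 16.1 CPM in vehicle-treated mouse 2. S100a4 was higher with light and vehicle (1.91, adjusted p = 0.0463) and lower with TD139 (−3.13, adjusted p = 0.00598). The other tested gene of this list was called in neither comparison, and the list medians were 1.07 and −1.61. The neutrophil list summed to 0.384 to 0.733, 2.39 to 3.02 and 0.452 to 2.00 CPM, with Csf3r, also expressed by microglia, as its 1 tested gene. It was higher with light and vehicle (2.38, adjusted p = 0.0318) and did not pass the test with TD139 (−1.42, adjusted p = 0.0587), but was called lower without TD139-treated mouse 1 (−2.58, adjusted p = 0.00102). T cell markers summed to 1.54 to 1.69, 2.36 to 4.23 and 0.751 to 2.26 CPM, and the defining Cd3e and Cd3g had no read in any mouse. The 1 tested gene of that list, Lck, passed neither test (0.85, adjusted p = 0.238, and −1.22, adjusted p = 0.0560) and was called lower with TD139 without TD139-treated mouse 1 (−2.04, adjusted p = 0.00227). B cell markers summed to 1.06 to 1.92, 1.06 to 1.85 and 1.04 to 1.94 CPM, with Ms4a1 at 0 and 0 called of 1 tested. Müller glia markers (6 genes) summed to 3952 to 4667, 5188 to 5741 and 4589 to 5373 CPM, with 3 higher in vehicle-treated mice and 1 lower with TD139 (3 with the offset, 2 without TD139-treated mouse 1). Of the pigment epithelium list 3 genes were tested, and its sum was 90.4 to 231, 199 to 416 and 113 to 165 CPM, with 0 called for vehicle against naïve and 2 lower with TD139, Rpe65 (−0.83, adjusted p = 0.0408) and Ttr (−1.42, adjusted p = 0.0491). Neither was called with the offset (adjusted p = 0.0632 and 0.107), and Ttr was not called without TD139-treated mouse 1 (adjusted p = 0.0604). The part of these cells in the adhesion genes was not tested. Of 6 rod genes, 4 were lower in vehicle-treated mice and 3 higher with TD139, where the offset gave 4 and 1, and the fit without TD139-treated mouse 1 gave 5 and 5.

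The other genes of the adhesion pathway were taken as lists, whose counts stand beside 4.91% of all tested genes higher and 2.89% lower for vehicle against naïve, and 17.2% higher and 16.2% lower for TD139 against vehicle. The first list held 14 genes of selectins, their ligands and the synthesis of these, of which 11 were tested. Of these, 1 was higher and 1 lower with light and vehicle, and 2 were higher and 4 lower with TD139 than with vehicle, with medians of 0.25 and −0.41. With the offset, under which 9.49% of all genes were higher and 10.8% lower with TD139, 1 was higher and 2 were lower, with a median of −0.21. Cd44, which encodes a receptor for hyaluronan that also binds selectins, was at 19.7, 20.01 and 26.8 CPM in naïve, 75.4, 49.7 and 132 in vehicle-treated and 37.9, 25.2 and 25.7 in TD139-treated mice, with log2 changes of 1.95 (adjusted p = 0.0235) and −1.54 (adjusted p = 0.0131). Podxl, for podocalyxin, a sialomucin, went the other way at −0.60 (adjusted p = 0.0216) and 0.69 (adjusted p = 0.00568). Cd34, a sialomucin of vessels, fell with TD139 (−0.66, adjusted p = 0.0349), and Glg1, for E-selectin ligand 1, was higher (0.90, adjusted p = 0.0271), a call lost with the offset (0.56, adjusted p = 0.0641).

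Of 19 other integrin genes tested, 3 were higher and 0 lower with light and vehicle (4.91% and 2.89% of all genes), and 1 was higher and 7 lower with TD139 (17.2% and 16.2%), with medians of 0.52 and −0.43. Itgb5, a beta chain that pairs with alpha V and binds vitronectin, was at 64.5 to 67.1 CPM in naïve mice, 91.0 to 119 CPM with vehicle and 55.7 to 69.8 CPM with TD139 (0.63 and −0.75, adjusted p = 0.0216 and 0.00568). Itga9, whose integrin binds tenascin and VCAM-1, rose by 0.73 (adjusted p = 0.0371) and fell by 0.77 on the log2 scale (adjusted p = 0.0114), and the laminin receptor chain Itga3 rose by 0.48 (adjusted p = 0.0216) and fell by 0.43 (adjusted p = 0.00879). The fibronectin receptor chain Itga5 fell with TD139 by 1.22 (adjusted p = 0.00568), after 0.66 (adjusted p = 0.0642) with light and vehicle. Itgb4 and the leukocyte chain Itgb7 were also lower with TD139, at −1.26 (adjusted p = 0.0340) and −1.56 (adjusted p = 0.0331), and the collagen receptor chain Itga1 was higher at 1.28 (adjusted p = 0.0311). With the offset, Itga1 (0.58, adjusted p = 0.302) and Itgb7 (−1.28, adjusted p = 0.0853) were not called, and Itgb7 was also not called without TD139-treated mouse 1 (adjusted p = 0.0554), where 2 of the list were higher and 7 lower. The offset gave 0 higher and 7 lower with TD139. Both fits gave 4 higher with light and vehicle, beside 7.24% of all genes with the offset and 7.56% without TD139-treated mouse 1. With TD139, 9.49% of all genes were higher and 10.8% lower with the offset, and 19.4% and 19% without TD139-treated mouse 1. Itgad had no read.

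The next list held adaptors and kinases that activate integrins or signal from them. Of 16 tested, 7 were higher with light and vehicle and 0 lower (4.91% and 2.89% of all genes), and 7 were lower and 1 higher with TD139 (16.2% and 17.2%), with medians of 0.92 and −1.0. Apbb1ip, which encodes the Rap1 effector RIAM, was at 0.230, 0.377 and 0.366 CPM in naïve, 2.25, 1.52 and 2.05 in vehicle-treated and 0.964, 0.661 and 0.356 in TD139-treated mice (2.56 and −1.54, adjusted p = 0.0158 and 0.0149). Vav1, a guanine nucleotide exchange factor of blood cells, changed by 3.11 (adjusted p = 0.0180) and −1.58 (adjusted p = 0.0324), the latter not called with the offset (adjusted p = 0.0587). The offset left 6 lower and 0 higher with TD139, and the fit without TD139-treated mouse 1 had 10 lower, among them Vav1 at −2.56 (adjusted p = 0.00133), and 1 higher. Both fits had 9 higher with light and vehicle, beside 7.24% of all genes with the offset and 7.56% without TD139-treated mouse 1. With TD139, 10.8% of all genes were lower and 9.49% higher with the offset, and 19% and 19.4% without TD139-treated mouse 1. The myeloid kinase Fgr was at 1.14, 0.564 and 2.05 CPM in vehicle-treated and at 0.259, 0.0696 and 0.0790 CPM in TD139-treated mice and fell with TD139 (adjusted p = 0.00815). With light and vehicle it did not pass the test (2.17, adjusted p = 0.0539). Syk and Fyb rose with light and vehicle (adjusted p = 0.0349 and 0.0269) and did not pass the test with TD139 (adjusted p = 0.0762 and 0.133), but were called lower without TD139-treated mouse 1 (adjusted p = 0.00757 and 0.00246), Syk at −2.68 in place of −1.59. Fyb had at most 0.113 CPM in a naïve mouse. Since these mice for Fyb, and 2 of the TD139-treated mice for Fgr, lie at or under 3 reads, no such fold change is given.

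Among 16 genes of junctions and transmigration, 3 were higher with light and vehicle and 0 lower (4.91% and 2.89% of all genes), and 6 were lower and 1 higher with TD139 (16.2% and 17.2%), with medians of 0.23 and −0.38. With the offset, 5 were higher with light and vehicle, where 7.24% of all genes were, and 3 were lower with TD139 (median −0.24, 10.8% of all genes). Without TD139-treated mouse 1 these were 5 and 6, beside 7.56% and 19% of all genes. F11r (JAM-A) rose by 1.23 (adjusted p = 0.0331) and fell by 1.55 (adjusted p = 0.00641), and Jam2 was higher with TD139 by 0.59 (adjusted p = 0.00693). Cd47, a self signal that is also a partner of integrins, rose by 0.47 (adjusted p = 0.0242) and did not pass the test with TD139 (−0.05, adjusted p = 0.724), but was lower with the offset (−0.46, adjusted p = 0.0143). Madcam1, a ligand of alpha 4 beta 7, was at most 0.0768 CPM in naïve mice, 0.458 to 0.873 CPM with vehicle and at most 0.185 CPM with TD139. Of 6 ligands in the matrix, 2 were higher with light and vehicle (4.91% of all genes) and 3 were lower with TD139 (16.2%). With the offset 4 were lower (10.8%) and 1 was higher (9.49%) with TD139, and 1 was lower with light and vehicle (6.34%). Without TD139-treated mouse 1, 3 were higher with light and vehicle (7.56%). Spp1, which encodes osteopontin, a ligand of alpha 4 and alpha 9 integrins, was at 8.10, 8.67 and 9.38 CPM in naïve, 137, 69.3 and 158 in vehicle-treated and 34.2, 8.59 and 7.07 in TD139-treated mice (3.80 and −2.87, adjusted p = 0.0294 and 0.0190). Thbs1, for thrombospondin 1, changed by 1.85 (adjusted p = 0.0127) and −1.30 (adjusted p = 0.00527), and Vwf, made by endothelium, fell by 1.33 with TD139 (adjusted p = 0.0117).

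The genes most like a given adhesion gene were those with the smallest root mean square difference of log2 CPM over the 9 mice after centring each gene. For Vcam1 they were Pdpn (0.142), Nfkb2 (0.158) and Tmem176a (0.199), beside its own SD over the mice of 0.930. For Icam1 they were Fcer1g (0.386), Serpina3m (0.413) and Fcgr3 (0.432), where its SD was 1.85, and for Itgb2 Rnase4 (0.304), Ncf1 (0.366) and Hk3 (0.374), with an SD of 1.36. Selplg was nearest to Acsf2 (0.166), Rnf135 (0.187) and Rab3il1 (0.204), and Alcam, which varied least with an SD of 0.196, to Fundc1 (0.0657), Zfp277 (0.0684) and Shisa9 (0.0796). The 9 points are mice of 3 groups, so that any gene that differed between the groups in the same way is near.

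The calls for vehicle against naïve depended on single mice. Of the 10 genes, 0 were called without naïve mouse 1 and 0 without naïve mouse 2, where 6 and 7 still had an unadjusted p under 0.05 (27.1% and 21.2% of all genes) and 0.591% and 0.00647% of all genes were called. The count was 3 without naïve mouse 3, 2 without vehicle-treated mouse 1 (Vcam1 and Itgb1) and 1 without vehicle-treated mouse 3 (Vcam1), and 4 to 6 in the other fits. All estimates kept their direction, with Icam1 at 3.10 to 4.08, Itgb2 at 2.24 to 2.73, Itgam at 1.85 to 2.55, Vcam1 at 1.83 to 2.04 and Itgb1 at 0.48 to 0.67. For TD139 against vehicle the count was 2 (Vcam1 and Itgb2) without TD139-treated mouse 2 and 3 (with Icam1) without mouse 3, as 10.5% and 12.4% of all genes were called. It was 4 to 6 without any other mouse, all lower, where 8.37 to 19% of all genes were lower.

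**Figure D4:**
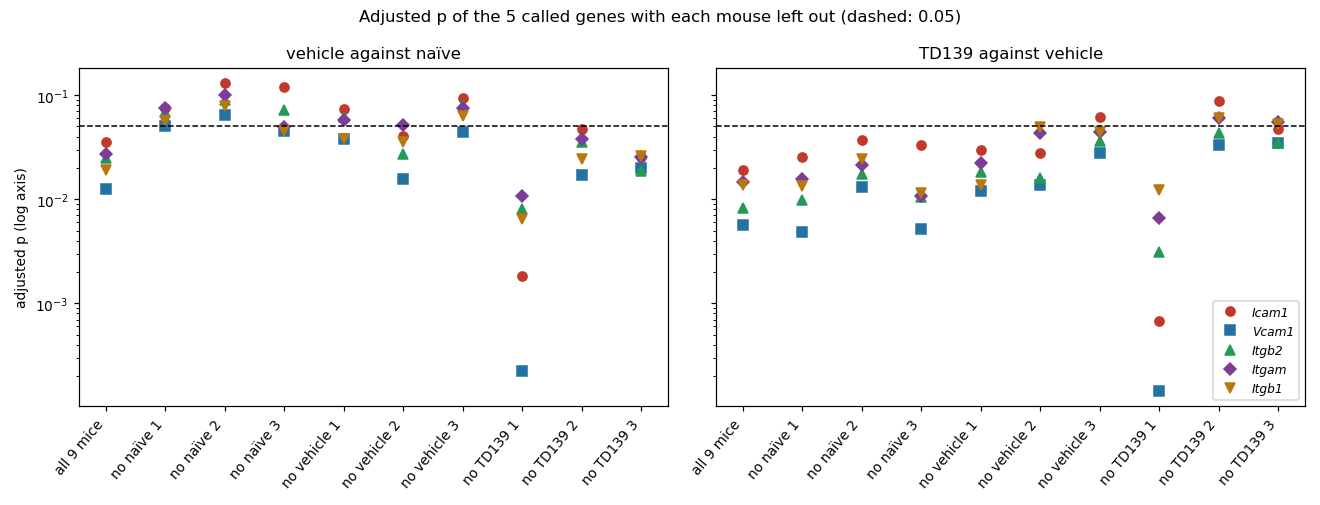
Adjusted p-values (vertical log axis) of Icam1, Vcam1, Itgb2, Itgam and Itgb1 with all 9 mice and without 1 mouse at a time (horizontal axis), for vehicle against naïve and TD139 against vehicle. All 5 genes lie above the dashed line at 0.05 without naïve mouse 1 or 2 in the left panel, and Vcam1 and Itgb2 stay below it throughout in the right panel.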

How the data were processed

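Retinal RNA of 9 mice (3 per group) was made into stranded mRNA libraries and sequenced in 2 runs. The authors deposited 1 table per mouse and run of whole-number read counts by gene symbol, from BaseSpace RNA Express and not normalized, with mm10 as the build per the labels. Whether counting used the strand is not given in the sources used here. Both runs of a mouse were summed, since they differed by a chi-square of 1.63 to 1.80 per degree of freedom, against 17.4 to 76.3 between mice of a group. Reads outside genes (16.5 to 22.8%) and ambiguous reads (0.303 to 0.471%) were left out of library sizes of 26171887 to 30201517 reads on genes. Positions and lengths came from GENCODE M21 (GRCm38), which held 98.52% of the symbols.

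All groups were fitted together with edgeR 4.0.16 (R 4.3.3, filterByExpr, TMM, robust quasi-likelihood F test), with Benjamini-Hochberg adjustment over 15196 genes and calls at an adjusted p-value under 0.05. The SE is the log2 fold change over the square root of F. The integrin share was tested with an exact permutation of mice. Intervals from counts would cover counting error only. The 11 alternatives included DESeq2 1.42.0, limma 3.58.1 (voom) and an offset for length and GC content (spline with 4 degrees of freedom per mouse, set by genes averaging 20 counts or more), and 9 fits left out a mouse.

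The 10 genes and all lists were chosen with earlier results of these data known, and 2 promoter motifs after reading a sequence. Genes named from the further adhesion lists are at most the 4 called genes with the largest log2 fold change in vehicle against naïve or in TD139 against vehicle; all other genes of a list are given by counts. Some genes that meet this rule are not reported here. Markers of pericytes, ganglion cells and red cells were summed too, and 0 of these were called for vehicle against naïve (4.91% of all genes higher, 2.89% lower). For TD139 against vehicle 1 was higher and 2 were lower (17.2% and 16.2%), or 0 and 1 with the offset (9.49% and 10.8%). Without TD139-treated mouse 1 these were 1 and 4 (19.4% and 19%), and 2 were higher for vehicle against naïve (7.56%).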

Additional observations from a re-analysis of the deposited data

How the results depend on the processing

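Besides the fits without a mouse, 11 alternatives were run. For vehicle against naïve they called 4 to 6 of the 10 genes, all higher, where 3.47 to 12.3% of all genes were higher. For TD139 against vehicle they called 5 to 6, all lower, where 10.8 to 22.8% of all genes were lower. The 5 genes named as higher and lower kept their direction throughout. Of the single calls, Icam1 against naïve was lost with no filter on low counts (adjusted p = 0.0577) and Itgam against naïve with the replicate block (adjusted p = 0.0503). For TD139 against naïve, Itga4 was no longer called (0 genes) with library size alone (3.69% of all genes called), with run 1 only (4.27%), with only the groups compared (0.00676%), with the length and GC offset (0%, with 2528 genes at an unadjusted p under 0.05) or with the replicate block (0%, with 4372). The cause was not tested, other than that the offset removes what follows length and GC content. The offset and the fit without TD139-treated mouse 1 were run on the gene lists after the data had been seen, and values from them are given beside the lists. Itgal was below the filter in run 1, in run 2 and with at least 1 CPM in 3 mice.

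The number shared by mice of different groups does not pair them, as deviations of same-numbered mice correlated at −0.26 to 0.28. With the replicate block, 4 of the genes were higher in vehicle against naïve (3.68% of all genes) and 5 were lower in TD139 against vehicle (15.4%). In TD139 against naïve 0 were called, as were 0% of all genes.

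Without each mouse in turn, 0 to 6 genes were higher in vehicle against naïve, where 0.00647 to 7.56% of all genes were. In TD139 against vehicle 2 to 6 were lower (4.91 to 19% of all genes), and in TD139 against naïve 0 to 1 was higher (0 to 9.87%). In the same order, the log2 difference in the integrin share ranged from 0.28 to 0.66, from −0.63 to −0.31 and from −0.18 to 0.21 around 0.00.

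Directions turned only for differences that were not called. For vehicle against naïve this was Icam2 (−0.094 in run 1). For TD139 against vehicle these were Icam2 (0.052) and Itga4 (−0.28) with the offset, and Alcam with library size alone (−0.026), voom (−0.010), run 2 (−0.035), the offset (−0.36) and without a mouse (−0.023 to 0.13). For TD139 against naïve these were Icam1 with voom (−0.62) and without a mouse (−1.03 to 1.07), Icam2 in run 2 (0.71), with the offset (0.37) and without a mouse (−0.34 to 0.19), and Vcam1 with voom (−0.14), the offset (−0.024) and without a mouse (−0.20 to 0.46). In that comparison Itgb2 turned with voom (−1.04), in run 1 (−0.65) and without a mouse (−0.49 to 0.56), Itgam (−0.11 to 0.78) and Selplg (−0.19 to 0.65) without a mouse, and Alcam with the offset (−0.0046). Library size alone moved the median of all genes by about 0.09 for vehicle against naïve and to −0.10 for TD139 against vehicle. Icam2, Itgal and, in naïve mice, Icam1, Itgam and Itgb2 rest on fewer than 40 reads a mouse, which limits what could be seen for them. In TD139-treated mice 1 to 3, Itgb2 had 28, 20 and 3 reads, Icam1 59, 13 and 4, and Itgam 44, 32 and 12.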
